A study of Artemia parthenogenetic lineage with 6 samples.

Results

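The peaks examined here are those around 4 genes linked to Wnt signaling in *Artemia* cysts. The genes evm.TU.ctg17.30, evm.TU.ctg15.54 and evm.TU.ctg777.6 carry the Gene Ontology (GO) term Wnt signaling pathway in the study's annotation of genes that responded to embryonic diapause termination (EDT). The study annotates evm.TU.ctg321.8 as Frizzled-10, which belongs to the family of Wnt receptors. All peaks that the authors had assigned to any of these 4 genes were taken. This gave 83 of the 112790 peaks of the merged peak table, the latter assigned to 12010 genes. The peaks numbered 19 for evm.TU.ctg17.30, 21 for evm.TU.ctg15.54, 30 for evm.TU.ctg777.6 and 13 for Frizzled-10. The copy of the annotation used here holds only part of the rows, so other Wnt genes may be missing from this set. The study picked the annotated genes partly on the diapause libraries used here, and the direction in which they moved is therefore no independent evidence.

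Wnt proteins are secreted signals that bind Frizzled receptors on the surface of neighbouring cells. In the canonical branch of the pathway, an occupied receptor leads to accumulation of beta-catenin, which enters the nucleus and switches on target genes. In animal embryos the pathway is known for setting body axes and for directing cell fate. An *Artemia* cyst is an embryo enclosed in a shell, arrested in diapause until environmental cues restart its development.

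ATAC-seq libraries of 2 groups were compared, each with 3 biological replicates of wild-type *A. parthenogenetica* cysts of the same batch from Ebinur Lake. ArD_0h stands for cysts in diapause (0 h, labelled as untreated) and ArR_5h for cysts 5 h after EDT, and both were rehydrated in ice-cold artificial seawater of 30‰ salinity, with reactivation under continuous light. The treatment labels give 28, 29 and 30 °C for ArR_5h replicates 1, 2 and 3, whereas the protocol gives 28 °C for all, and which applied to replicates 2 and 3 is unclear. The cysts are whole embryos, so a change in one cell type and a change in the share of that cell type cannot be told apart, and the table pairs no gene IDs with names from which the labelled tissue could be checked. Reads were mapped to contigs of an *A. franciscana* assembly, another species of the genus, and positions are given as in the authors' table.

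In ATAC-seq the Tn5 transposase cuts open chromatin, and more reads therefore come from accessible DNA than from closed DNA. Counts in peaks ranged from 5239170 to 9366963 per library. Levels are given in CPM, counts in a peak scaled to a common library size by TMM, and the 3 values of a group stand in the order of replicates 1, 2 and 3. Calls of higher or lower accessibility in ArR_5h required both a log2 difference (ArR_5h minus ArD_0h, with its standard error, SE) above 1 in size and a p of at most 0.05 from the quasi-likelihood test of edgeR, adjusted by Benjamini-Hochberg over 112211 tested peaks. All 83 peaks of the 4 genes passed the filter on low counts and were tested.

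Chromatin around the 4 genes was more often gained than lost between diapause and 5 h after EDT. Of the 83 peaks, 23 (27.7%) were higher in ArR_5h, against 14.5% of all tested peaks, and 3 (3.61%) were lower, against 15.2% of all tested peaks. The other 57 were not called. The log2 difference was positive in 60 of the 83 peaks (72.3%, against 47.9% of all tested peaks) and ranged from -1.31 to 2.12, with a median of 0.66 against -0.07 over all tested peaks. All 3 ArR_5h libraries lay above all 3 ArD_0h libraries in 40 of the 83 peaks, against 26.4% of all tested peaks, and below them in 9, against 25.7%. None of the 26 called peaks had overlapping groups, which is usual for called peaks. Over the whole table it held for 15963 of 16261 called higher and 15833 of 17091 called lower peaks.

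The size of this gain depended on 1 diapause library. ArD_0h replicate 1 was the lowest of its group in 20 of the 23 higher peaks, as it was in 71.6% of the higher peaks of the whole table. Without it, 16 of the 83 peaks were higher (19.3%, against 10.8% of all tested peaks) and 3 were lower (3.61%, against 12.6%). The higher calls lost in that fit missed only the limit on size, with adjusted p values from 2.1e-05 to 0.0304. Without ArR_5h replicate 1, 18 were higher (21.7%, against 10.1%) and 2 were lower (2.41%, against 8.49%). With the trend of the difference on peak level removed by loess offsets and all libraries kept, 24 were higher (28.9%, against 13.6%) and 3 were lower (3.61%, against 13.8%). With both the loess offsets and ArD_0h replicate 1 left out, an alternative chosen after the values were seen, 10 were higher (12.0%, against 9.84%) and 3 were lower (3.61%, against 10.5%). The higher share then came close to that of all peaks, whereas the lower share did not.

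**Figure D1:**
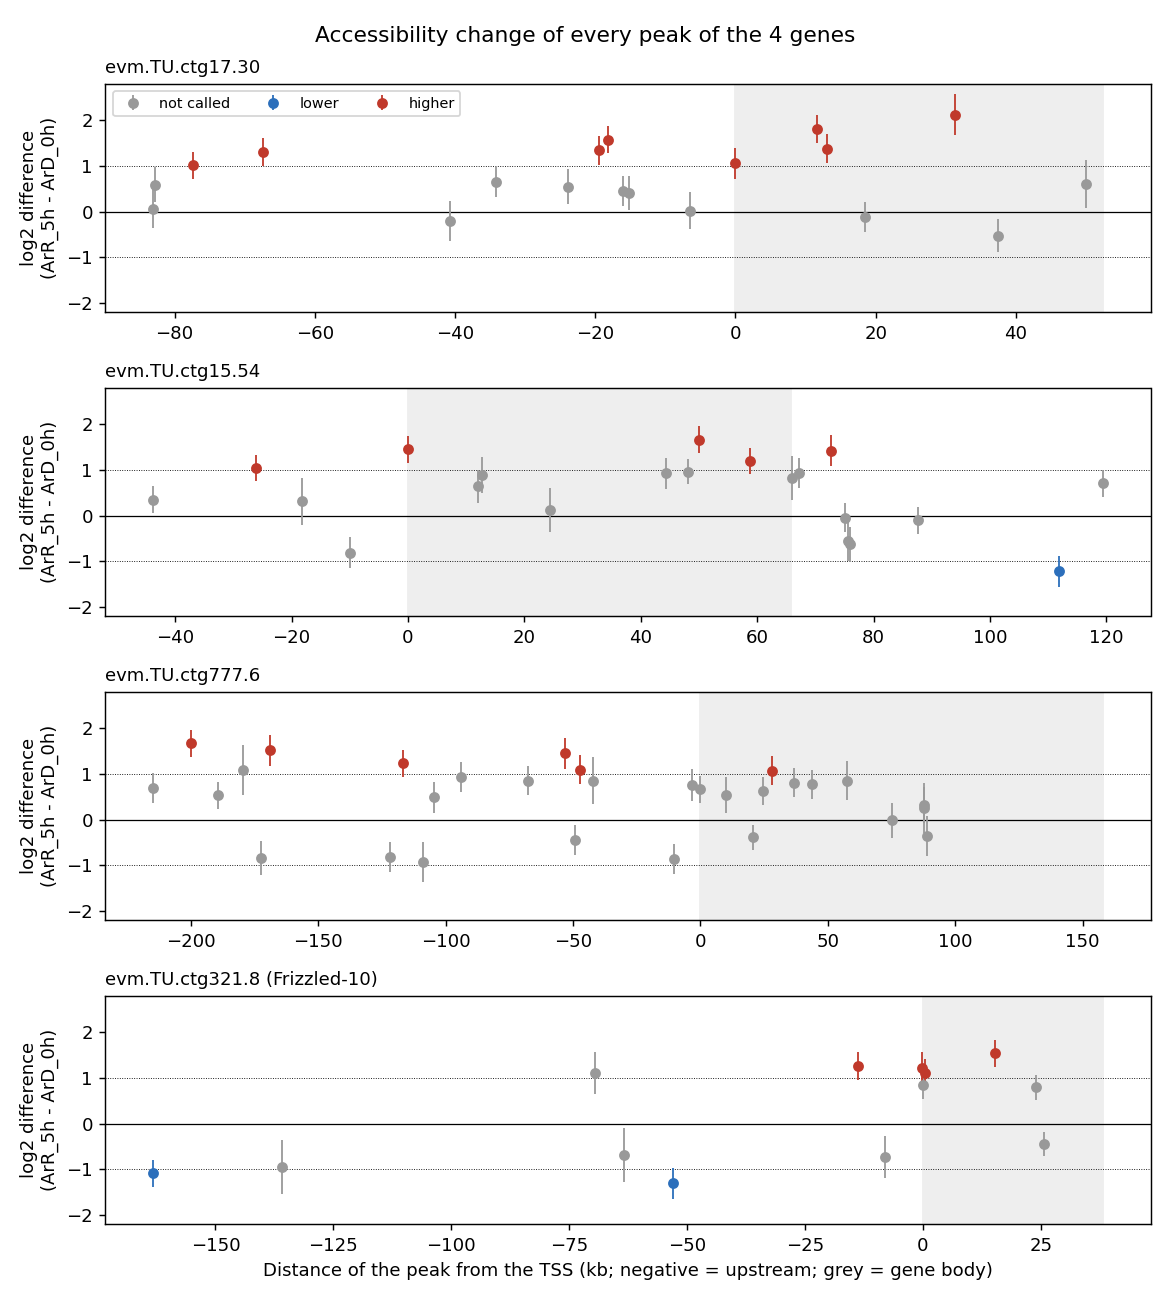
The log2 difference of each of the 83 peaks (ArR_5h minus ArD_0h, with its standard error) is plotted against distance from the transcription start site in kb, 1 panel for each gene, with the gene body shaded. Red points are the 23 peaks called higher, blue points the 3 called lower and grey points the 57 not called. Dotted lines mark a difference of 1 in either direction. The lower peaks lie outside the gene bodies, 1 beyond the end of evm.TU.ctg15.54 and 2 upstream of Frizzled-10.

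Summed over all peaks, the accessibility of each of the 4 genes was higher in ArR_5h than in ArD_0h. The groups did not overlap, but how often that holds over all gene sums was not counted. Gene sums were called by their adjusted p alone, and over all genes 21.1% were higher and 22.7% lower, with a median log2 difference of -0.01. The sum for evm.TU.ctg17.30 was 73.0, 113 and 98.4 CPM in ArD_0h and 182, 169 and 151 CPM in ArR_5h. This was the largest gain of the 4 genes, a log2 difference of 0.82 (SE 0.15, adjusted p = 0.0031), at the 94.3 percentile of 12002 genes. The sum for evm.TU.ctg15.54 was 102, 116 and 120 CPM in ArD_0h and 176, 174 and 160 CPM in ArR_5h, a log2 difference of 0.60 (SE 0.10, adjusted p = 0.00184). The ArD_0h libraries of this gene lay close together, with a mean of 113 ± 9.02 CPM (SD, n = 3), so replicate 1 stood less apart here than at the other 3 genes. For evm.TU.ctg777.6 the sum was 135, 213 and 205 CPM in ArD_0h and 280, 270 and 280 CPM in ArR_5h, a log2 difference of 0.59 (SE 0.16, adjusted p = 0.0148). Its 3 ArR_5h libraries were nearly equal, and its lowest ArD_0h library was again replicate 1. Without ArR_5h replicate 1 its adjusted p was 0.0516. The Frizzled-10 sum was 80.3, 103 and 98.9 CPM in ArD_0h and 148, 138 and 123 CPM in ArR_5h, a log2 difference of 0.54 (SE 0.12, adjusted p = 0.0071). When each library was left out in turn, the log2 differences were 0.66 to 0.97 for evm.TU.ctg17.30, 0.54 to 0.65 for evm.TU.ctg15.54, 0.41 to 0.71 for evm.TU.ctg777.6 and 0.44 to 0.61 for Frizzled-10, and no other call was lost.

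**Figure D2:**
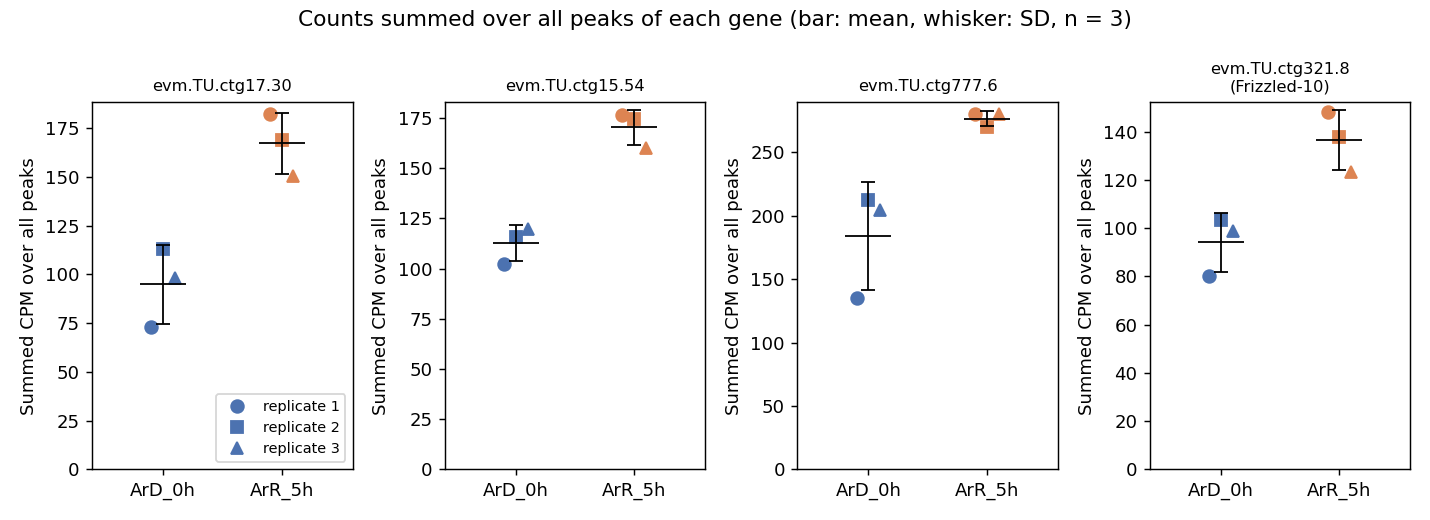
Counts summed over all peaks of each gene are plotted in CPM for the 3 ArD_0h and 3 ArR_5h libraries, with marker shapes for the replicates and the mean and SD of each group (n = 3). In each of the 4 panels every ArR_5h library lies above every ArD_0h library, and ArD_0h replicate 1 is the lowest library.

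The genes evm.TU.ctg15.54 and evm.TU.ctg777.6 carry the terms receptor binding, extracellular region and multicellular organism development beside Wnt signaling. The former also carries cell adhesion, structural molecule activity and extracellular matrix. It lies on the plus strand of ctg15 from 2585876 to 2651680, a span of 65805 bp. Of its 21 peaks, 5 were higher in ArR_5h and 1 was lower. The peak over its transcription start site (TSS), from 2585537 to 2586105, held 5.56, 4.59 and 7.03 CPM in ArD_0h and 19.0, 15.9 and 11.4 CPM in ArR_5h. The lowest ArR_5h library was well above the highest ArD_0h library, and replicate 1 was not the lowest diapause library at this site. The log2 difference was 1.45 (SE 0.29, adjusted p = 0.000936), a 2.73-fold gain, and the call held in each of 14 alternative fits.

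Both of its higher peaks inside the gene lay in the part far from the TSS. The one from 2635947 to 2636479, 50071 bp from the TSS, held 4.59, 8.10 and 7.22 CPM in ArD_0h and 21.4, 21.8 and 19.7 CPM in ArR_5h, a log2 difference of 1.66. This was the largest gain at the gene (adjusted p = 0.000351), and it too was called in each of the 14 alternative fits. The one at 58790 bp, from 2644666 to 2645240, held 4.03, 6.42 and 5.89 CPM in ArD_0h and 14.0, 11.1 and 12.0 CPM in ArR_5h, a log2 difference of 1.19, or 0.995 without ArD_0h replicate 1. Another peak inside the gene at 48056 bp had an adjusted p of 0.00932 but a log2 difference of 0.96, just under the limit of 1.

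Outside this gene, one peak beyond its end and one upstream were higher. The peak 72677 bp from the TSS, from 2658553 to 2659021, held 1.95, 4.13 and 6.46 CPM in ArD_0h and 12.0, 12.7 and 7.69 CPM in ArR_5h, a log2 difference of 1.42. The strongest peak of the gene, at -26146 bp from 2558619 to 2559730, held 6.54, 11.5 and 9.31 CPM in ArD_0h and 16.9, 19.7 and 19.7 CPM in ArR_5h, a log2 difference of 1.04. Its difference was 0.83 without ArD_0h replicate 1 and 0.74 with loess offsets on level, both under the limit. The other strong upstream peak, at -43815 bp, held 8.21, 13.0 and 12.7 CPM in ArD_0h and 15.8, 15.9 and 11.2 CPM in ArR_5h and was not called, with overlapping groups and a log2 difference of 0.35. The one lower peak lay 111874 bp from the TSS, beyond the end of the gene, from 2697750 to 2698062. It held 6.68, 5.20 and 7.41 CPM in ArD_0h and 2.81, 2.01 and 3.56 CPM in ArR_5h, a log2 difference of -1.22 (SE 0.35, adjusted p = 0.00885). That call was lost without ArR_5h replicate 2, where the adjusted p was 0.064. The 15 peaks not called ranged from -0.81 to 0.96, of which 10 were above 0.

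The gene evm.TU.ctg777.6 is the longest of the 4, on the plus strand of ctg777 from 220675 to 378672 (157998 bp). It was the first gene listed on its contig, so every peak before it was assigned to it, up to -214908 bp. Of its 30 peaks, 6 were higher in ArR_5h and none was lower, and 5 of the 6 lay upstream. The largest gain was the farthest of these, at -199814 bp from 20239 to 20861, with 3.62, 6.42 and 6.84 CPM in ArD_0h and 18.0, 16.9 and 18.6 CPM in ArR_5h. The ArR_5h libraries there were nearly equal, the log2 difference was 1.67 (SE 0.30, adjusted p = 0.000357), and the call held in each of 14 alternative fits. At -168924 bp (51197 to 51751) the levels were 3.34, 10.4 and 10.1 CPM in ArD_0h and 22.3, 23.8 and 21.4 CPM in ArR_5h, a log2 difference of 1.52. ArD_0h replicate 1 had by far the lowest level at this peak, yet the call was kept without it.

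The other 3 upstream gains of evm.TU.ctg777.6 were smaller in size or level. The peak at -53207 bp, from 167170 to 167468, held 1.67, 4.89 and 4.18 CPM in ArD_0h and 9.79, 8.74 and 10.7 CPM in ArR_5h, a log2 difference of 1.45. At -116774 bp, from 103442 to 103901, the levels were 4.17, 6.12 and 3.99 CPM in ArD_0h and 11.6, 10.15 and 12.0 CPM in ArR_5h, a log2 difference of 1.23. Each of these 2 calls was lost in 1 of 14 alternative fits, that with loess offsets and without ArD_0h replicate 1. The strongest peak of the gene, at -47146 bp from 172744 to 173529, held 8.07, 17.6 and 20.1 CPM in ArD_0h and 37.2, 31.3 and 28.7 CPM in ArR_5h, a log2 difference of 1.09. That call was lost without ArD_0h replicate 1, where the difference of 0.79 missed only the limit on size (adjusted p = 0.000139). It was also lost without ArR_5h replicate 1 (adjusted p = 0.0735) and with loess offsets (difference 0.77).

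Inside this gene the only called peak was at 28170 bp, from 248845 to 249141, with 2.50, 4.43 and 5.89 CPM in ArD_0h and 9.11, 9.21 and 8.06 CPM in ArR_5h. Its log2 difference of 1.07 fell to 0.78 without ArD_0h replicate 1. The adjusted p was 0.0566 without ArR_5h replicate 1 and 0.0526 without ArR_5h replicate 2, so this call too was lost there. The peak over the TSS, from 220595 to 220934, held 3.48, 6.73 and 6.27 CPM in ArD_0h and 8.78, 7.32 and 9.93 CPM in ArR_5h. The groups did not overlap, but the log2 difference was 0.66 with an adjusted p of 0.0829, and it was not called. The strongest peak of the gene body, at 43749 bp, held 9.04, 21.9 and 19.8 CPM in ArD_0h and 30.0, 28.6 and 27.9 CPM in ArR_5h, a log2 difference of 0.78 (adjusted p = 0.0525). The strong upstream peak at -94176 bp held 5.29, 14.8 and 16.2 CPM in ArD_0h and 23.9, 20.4 and 24.7 CPM in ArR_5h, with a log2 difference of 0.94, just under the limit. The 24 peaks not called ranged from -0.93 to 1.09, of which 16 were above 0.

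The gene evm.TU.ctg17.30 carries the terms cell-cell signaling and integral component of membrane beside Wnt signaling and cell surface receptor signaling, together with ATP binding, a kinase-type transferase activity, carbohydrate metabolism and histidine biosynthesis. No single gene name follows from these terms, and none is given here. It lies on the minus strand of ctg17 from 2214927 to 2267345 (52419 bp). Of its 19 peaks, 8 were higher in ArR_5h (42.1%) and none was lower. The highest share of gained peaks among the 4 genes was therefore found here, although the genes were not tested against each other.

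The peak over its TSS, from 2267030 to 2268075, was the strongest of all 83, with 7.93, 24.2 and 21.7 CPM in ArD_0h and 45.1, 36.2 and 29.8 CPM in ArR_5h. Replicate 1 of ArD_0h held less than any other library, and replicate 1 of ArR_5h held more. The log2 difference of 1.06 (SE 0.34, adjusted p = 0.018) was therefore among the least stable calls. It was 0.69 without ArD_0h replicate 1 (adjusted p = 0.000458) and 0.76 with loess offsets (adjusted p = 0.0325), both short of the limit on size only. The adjusted p was 0.117 without ArR_5h replicate 1 and 0.0632 without ArR_5h replicate 2.

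The 3 higher peaks inside evm.TU.ctg17.30 had larger differences than its TSS peak. The peak 31247 bp from the TSS, from 2235838 to 2236098, held 0.556, 1.07 and 3.04 CPM in ArD_0h and 7.88, 5.90 and 5.44 CPM in ArR_5h. Its log2 difference of 2.12 (SE 0.45, adjusted p = 0.00135) was the largest of the 83 peaks, a 4.34-fold gain, but from a low level. The peak at 11642 bp, from 2255071 to 2255703, went from 2.78, 4.89 and 4.94 CPM to 17.8, 13.7 and 12.4 CPM, a log2 difference of 1.81 (SE 0.30, adjusted p = 0.000242). Both of these calls held in each of the 14 alternative fits. A neighbouring peak at 13094 bp, from 2253762 to 2254251, held 2.64, 6.73 and 4.37 CPM in ArD_0h and 12.4, 11.3 and 12.0 CPM in ArR_5h, a log2 difference of 1.38.

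Upstream of this gene 4 peaks were higher, which form a nearer and a farther pair in the plot of change by distance. The pair nearer to the gene comprised the peak at -18173 bp, from 2285518 to 2285775, with 3.48, 2.91 and 4.56 CPM in ArD_0h and 9.45, 12.0 and 10.9 CPM in ArR_5h (log2 difference 1.57, adjusted p = 0.000593). Its partner at -19499 bp, from 2286844 to 2287206, held 3.62, 7.49 and 6.27 CPM in ArD_0h and 18.9, 14.0 and 10.5 CPM in ArR_5h (log2 difference 1.34). The former call held in each of the 14 alternative fits. The farther pair was the peak at -67331 bp, from 2334676 to 2335134, with 3.06, 5.35 and 6.27 CPM in ArD_0h and 12.3, 13.1 and 10.3 CPM in ArR_5h (log2 difference 1.30), and that at -77374 bp, from 2344719 to 2345414, with 3.90, 6.27 and 8.36 CPM in ArD_0h and 13.6, 10.9 and 12.6 CPM in ArR_5h (log2 difference 1.02). The last of these lost its call with loess offsets (0.84), without ArD_0h replicate 1 (0.76) and without ArR_5h replicate 1 (adjusted p = 0.0652). The 11 peaks not called ranged from -0.52 to 0.65, all well inside the limit of 1.

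Frizzled-10, the receptor of the set, spans 38216 bp of ctg321 (222221 to 260436, minus strand). Its GO terms are G protein-coupled receptor activity and signaling, protein binding and integral component of membrane, and the Wnt term is not among them. It was the only one of the 4 genes with called gains near the gene and called losses far upstream. The 4 higher peaks lay between -13744 and 15232 bp of the TSS, and both lower peaks lay at -52883 bp and beyond. The strongest peak of the gene lay just upstream of the TSS, at -223 bp (260659 to 261508), with levels of 6.54, 17.6 and 19.6 CPM before and 39.6, 32.8 and 29.1 CPM after EDT. Replicate 1 of ArD_0h was far below the others there. Without it the log2 difference of 1.22 (SE 0.34, adjusted p = 0.00752) was 0.87 (adjusted p = 2.1e-05), short of the limit on size only. That call was also lost with loess offsets (0.92) and without ArR_5h replicate 1 (adjusted p = 0.061). The gene body peak at 15232 bp, spanning 244239 to 245204, rose from 8.21, 12.1 and 11.02 CPM to 35.1, 28.7 and 27.2 CPM. Its log2 difference of 1.54 (SE 0.30, adjusted p = 0.000634) was the largest at the gene, and its call held in each of 14 alternative fits, as did no other call at this gene. The peak at -13744 bp, from 274180 to 274902, held 3.90, 7.49 and 6.65 CPM in ArD_0h and 17.33, 15.3 and 9.93 CPM in ArR_5h, a log2 difference of 1.26. The small peak at 414 bp, from 259604 to 260022, held 3.62, 4.28 and 6.65 CPM in ArD_0h and 10.7, 11.5 and 8.81 CPM in ArR_5h, a log2 difference of 1.11, or 0.94 and not called without ArD_0h replicate 1.

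At the TSS of Frizzled-10 itself (260123 to 260492) the peak contained 4.17, 8.72 and 4.18 CPM in ArD_0h and 11.3, 9.21 and 10.3 CPM in ArR_5h. Here replicate 2 was the high diapause library, and the log2 difference was 0.84 with an adjusted p of 0.0331. A second peak inside the gene, at 23916 bp, held 5.98, 8.26 and 10.6 CPM in ArD_0h and 15.0, 13.9 and 13.9 CPM in ArR_5h, with a log2 difference of 0.79 (adjusted p = 0.0289). Neither reached the limit on size. The lower peak at -52883 bp, from 313319 to 313599, held 7.23, 6.42 and 7.41 CPM in ArD_0h and 1.91, 2.72 and 4.12 CPM in ArR_5h, a log2 difference of -1.31 (SE 0.34, adjusted p = 0.00527). The lower peak at -163245 bp, from 423681 to 424079, held 8.76, 16.2 and 11.2 CPM in ArD_0h and 4.84, 6.14 and 6.19 CPM in ArR_5h, a log2 difference of -1.08. Neither loss rested on ArD_0h replicate 1, which was the lowest diapause library in one of them and intermediate in the other. Without ArR_5h replicate 1 the adjusted p was 0.0551 and 0.0633, and without ArD_0h replicate 2 the farther peak had a log2 difference of -0.75. With library totals behind RPM, the alternative scaling, it had -0.94. The 7 peaks not called ranged from -0.95 to 1.12, of which 3 were above 0, and did not all follow the pattern of the calls. The highest of them lay far upstream at -69463 bp (adjusted p = 0.0551). Those at -8073 bp (-0.73) and 25658 bp (-0.44), nearer to the TSS, were negative.

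Near the start sites, 2 of the 4 genes gained accessibility relative to other promoters. Peaks within 3000 bp of a TSS were summed for each gene and tested over 6796 genes, of which 9.01% were higher and 10.9% lower. The promoter sum of evm.TU.ctg15.54 (1 peak) had a log2 difference of 0.96 (SE 0.29, adjusted p = 0.0385), and that of Frizzled-10 (3 peaks) had 0.71 (SE 0.23, adjusted p = 0.0475). Both were higher in ArR_5h. The promoter sum of evm.TU.ctg17.30 (1 peak) had a log2 difference of 0.67 (adjusted p = 0.0917), and that of evm.TU.ctg777.6 (1 peak) had 0.24 (adjusted p = 0.598), and neither passed the test. Scaling by promoter counts sets the median promoter near 0 (0.01), whereas with the library sizes of the fit over all peaks the median was 0.45 and the differences were 1.45, 1.12, 1.05 and 0.66 in the same order. These 4 values therefore say how each promoter moved relative to other promoters. The 2 promoter calls were not stable: both were lost in the fit with the replicate number as a block and with a promoter distance of 1000 bp, and in 5 of 6 fits without 1 library.

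**Figure D3:**
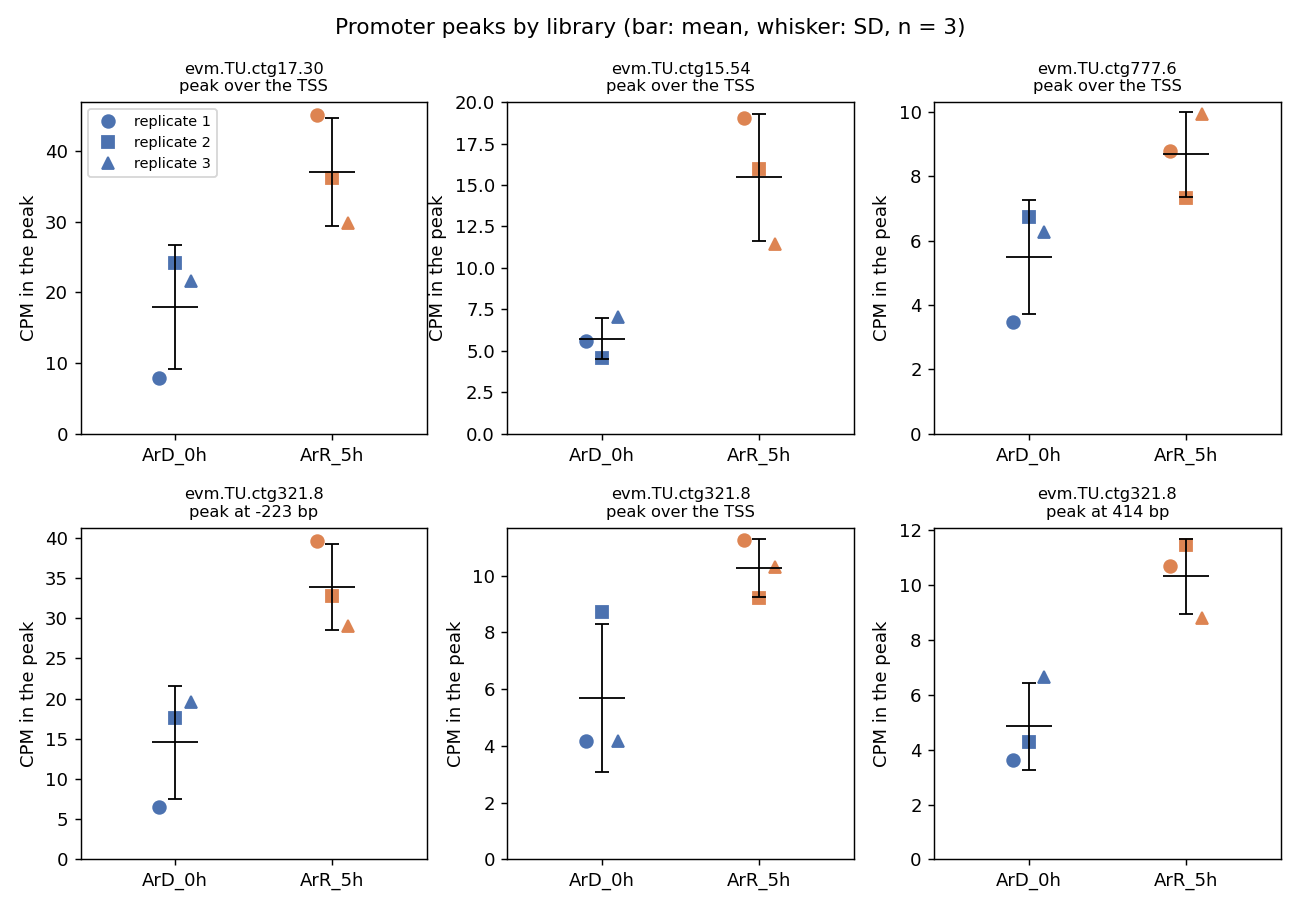
The 6 promoter peaks of the 4 genes are plotted in CPM for each library, with marker shapes for the replicates and the mean and SD of each group (n = 3). All ArR_5h libraries lie above all ArD_0h libraries in each panel, which held for 26.4% of all tested peaks. The share among promoter peaks was not counted. Their median log2 difference over the whole table was 0.39, against -0.07 over all tested peaks. ArD_0h replicate 1 is the lowest library in 5 of the 6. The CPM shown are scaled over all peaks. With scaling by promoter counts, the groups of evm.TU.ctg777.6 overlapped (lowest ArR_5h library 53.7 CPM, highest ArD_0h library 59.7 CPM).

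By position, the share of higher peaks exceeded that of all peaks inside the genes and upstream, but not beyond the gene end. Of the 4 peaks over a TSS, too few for a share, 2 were higher and none lower, against 27.5% and 0.98% of all such tested peaks. Inside the genes 8 of 28 peaks were higher and none lower, against 16.6% and 10.7% of all gene body peaks. Upstream 12 of 42 were higher and 2 lower, against 13.0% and 18.0%. Beyond the gene end, where only evm.TU.ctg15.54 had peaks, 1 of 9 was higher and 1 lower (11.1% each), against 12.0% and 19.3%.

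The gained peaks were mostly compound ones, that is, peaks into which the authors' merging had placed several summits. Of the 36 member peaks with 3 or more summits, 19 were higher in ArR_5h (52.8%), against 24.7% of all tested peaks with 3 or more summits. Of the 37 with 1 summit, 2 were higher (5.41%), against 7.60%, and of the 10 with 2 summits, 2 were higher, against 18.0%. All 6 peaks of evm.TU.ctg17.30 with 3 or more summits were higher, as were 4 of 8 at evm.TU.ctg15.54, 6 of 15 at evm.TU.ctg777.6 and 3 of 7 at Frizzled-10. The 1-summit peak of evm.TU.ctg17.30 at 31247 bp, the largest gain of all, was one of the exceptions. Peaks with 3 or more summits were also stronger, with a median level of 9.30 CPM among the members against 3.65 CPM for those with 1 summit. Over all tested peaks, too, the median log2 difference was -0.33 with 1 summit and 0.37 with 3 or more. Summits are called from read signal, so their number is not a trait independent of the counts compared here. The share of higher peaks among the 36 was 33.3% without ArD_0h replicate 1 (15.6% of all peaks with 3 or more summits), 38.9% with loess offsets on level (14.8%) and 16.7% with both (8.57%).

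**Figure D4:**
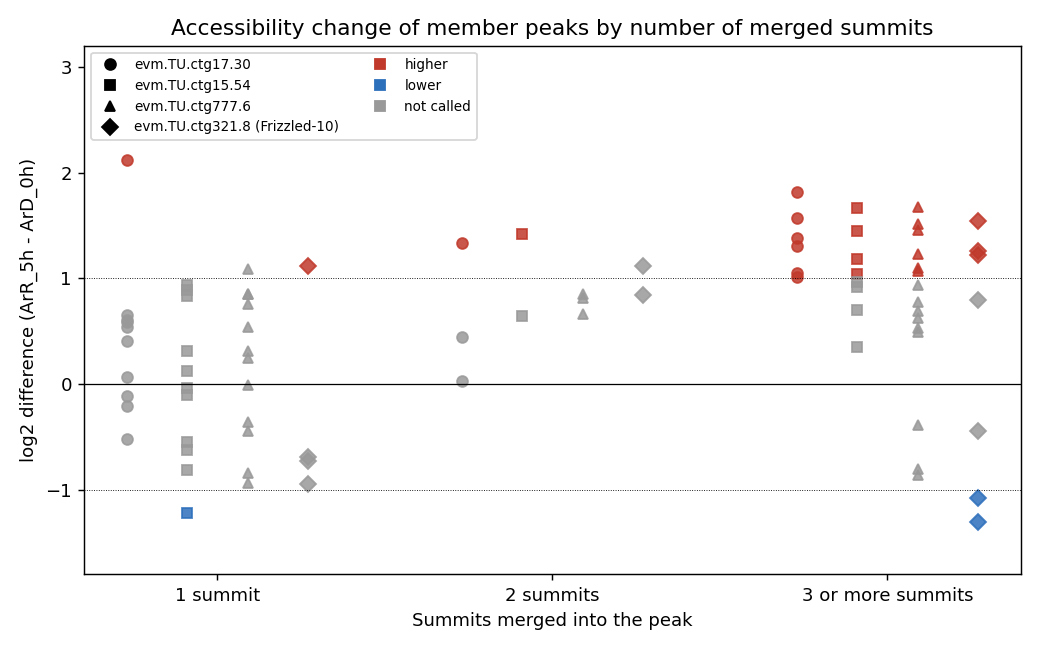
The log2 difference of each of the 83 peaks (ArR_5h minus ArD_0h) is plotted by the number of summits merged into the peak, with marker shapes for the 4 genes and colours for the call. Of the 36 peaks with 3 or more summits 19 are called higher (52.8%, against 24.7% of all such tested peaks). Of the 37 with a single summit 2 are called higher (5.41%, against 7.60%). The number of summits is not independent of the read signal. Dotted lines mark a difference of 1 in either direction.

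Each peak was also tested against its gene as a whole. Of the 83, 7 lay above their gene (8.43%, against 10.1% of all peaks tested in this way) and 17 lay below it (20.5%, against 14.8%), so the former share was near that of all peaks and the latter somewhat above it. These 17 were 6 peaks of evm.TU.ctg777.6, 5 of Frizzled-10, 4 of evm.TU.ctg15.54 and 2 of evm.TU.ctg17.30. The lower peaks of Frizzled-10 differed from the gene as a whole by -1.91 at -52883 bp (adjusted p = 0.0001) and -1.68 at -163245 bp (adjusted p = 6e-05), and the lower peak of evm.TU.ctg15.54 differed by -1.89 (adjusted p = 2.8e-05). Several peaks of evm.TU.ctg777.6 that were not called by themselves also lay below that gene as a whole, such as those at -121952 bp (-1.46) and -10538 bp (-1.51). The count above ranged from 0 to 7 and the count below from 9 to 18 when 1 library was left out. This test takes the spread from peaks of the same libraries, so its p-values may be too small.

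Set against their surroundings, 3 of the 4 genes gained more than their contig as a whole, in a comparison chosen after the values were seen. Over the table, 14.9% of 11403 genes passed this test on the upper side. It takes the spread from genes of the same libraries, so its p-values too may be too small. The contrast was widest for evm.TU.ctg17.30, which lay above ctg17 by a log2 difference of 1.10 (adjusted p = 5.1e-09). Of the other 139 peaks on that contig, 55 were lower in ArR_5h (39.6%) and 14 were higher, with a median log2 difference of -0.99. Around evm.TU.ctg777.6, 13 of 58 other peaks on ctg777 were lower and 3 higher, with a median of -0.61, and the gene lay above the contig by 0.61 (adjusted p = 0.000642). On ctg15 the other 470 peaks were balanced, with 79 higher and 70 lower, and evm.TU.ctg15.54 lay above the contig by 0.47 (adjusted p = 0.00539). Frizzled-10 had a difference of 0.32 from ctg321 and did not pass the test (adjusted p = 0.0809). With each library left out in turn the first 3 kept their call, with differences of 0.96 to 1.22, 0.48 to 0.69 and 0.42 to 0.52, and Frizzled-10 was never called.

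**Figure D5:**
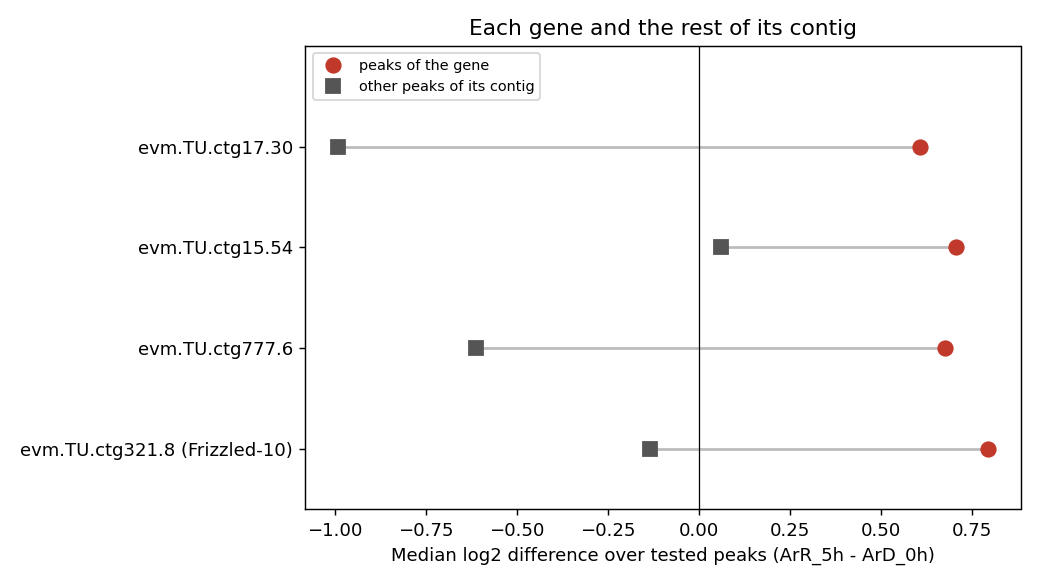
The median log2 difference (ArR_5h minus ArD_0h) over the tested peaks of each gene (circles) is plotted beside the median over the other tested peaks of its contig (squares). The gap is widest for evm.TU.ctg17.30, where the gene is at 0.61 and the rest of ctg17 at -0.99, and all 4 genes lie to the right of their contig.

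The nearest genes with peaks on either side of the 4 numbered 7, at gaps of 28355 to 332732 bp. Genes without peaks were not considered, so they need not be the adjacent genes. Of the 7, 1 was higher in ArR_5h by its gene sum and 2 were lower, against 21.1% and 22.7% of all gene sums. Beside evm.TU.ctg17.30, the sum of evm.TU.ctg17.34 was lower (-0.43, adjusted p = 0.0129), and that of evm.TU.ctg17.27, with 1 peak, had a log2 difference of -1.08 (adjusted p = 0.115). Beside evm.TU.ctg15.54, evm.TU.ctg15.55 was lower (-0.38, adjusted p = 0.0195) and evm.TU.ctg15.53 had 0.02 (adjusted p = 0.902). The neighbour of evm.TU.ctg777.6, evm.TU.ctg777.7_evm.TU.ctg777.9, had -0.23 (adjusted p = 0.315). The higher neighbour was evm.TU.ctg321.6 beside Frizzled-10 (0.41, adjusted p = 0.00758), whereas evm.TU.ctg321.13 on the other side had -0.63 (adjusted p = 0.0595).

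Genes that share a term with the 4 had more higher than lower peaks. The 4 other genes with the term cell surface receptor signaling pathway, which evm.TU.ctg17.30 carries, had 63 peaks, of which 36 were higher (57.1%, against 14.5% of all tested peaks) and 1 was lower (1.59%, against 15.2%), with a median log2 difference of 1.05. Without ArD_0h replicate 1, 20 of the 63 were higher (31.7%, against 10.8%) and 1 was lower. All 4 of their gene sums were higher, by 0.41 to 0.94, against 21.1% of all gene sums, and 2 to 4 of the 4 when 1 library was left out. The 4 other genes with the term receptor binding, which evm.TU.ctg15.54 and evm.TU.ctg777.6 carry, had 101 peaks, of which 24 were higher (23.8%) and 5 were lower (4.95%), with a median of 0.45. Of their gene sums 3 of 4 were higher and none lower, against 21.1% and 22.7% of all gene sums, with log2 differences from 0.23 to 0.64. Without ArD_0h replicate 1, 21 of the 101 peaks were higher (20.8%) and 4 were lower, and the gene sums called higher were 2 or 3 of 4 when 1 library was left out. In neither list did any of the 3 promoter sums pass the test. These genes come from the same annotation, and the same limit on their direction applies.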

How the data were processed

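Peak counts of 6 ATAC-seq libraries were analysed, 3 of ArD_0h and 3 of ArR_5h. The counts that the authors deposited are integers, 1 value per library for every peak of a merged set. In the deposited RPM values the authors had added 1 to each count and divided by a library total, and these totals, 40032026 to 63171194, served only as an alternative scaling. Counts in peaks made up 10.6%, 13.0% and 12.7% of them in ArD_0h and 14.8%, 14.6% and 13.7% in ArR_5h. This share was thus lower in every ArD_0h library than in any ArR_5h library, and lowest in ArD_0h replicate 1. Its bearing on the difference at single peaks was not tested. The labels name BWA and MACS2. The paper's methods give mapping to an *A. franciscana* assembly after trimming, with reads of low mapping quality and duplicates removed. They name ChIPseeker for sorting peaks into classes of genomic region. Whether it also linked peaks to genes in the deposited table, whether reads were shifted for the Tn5 offset, and which tool counted reads are not given in the sources used here. Mapping to another species can leave out diverged sequence.

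Counts that passed filterByExpr were fitted with edgeR 4.0.16 under R 4.3.3 (TMM scaling and the quasi-likelihood test with Benjamini-Hochberg adjustment, without a replicate block) over all peaks, over sums by gene and over promoter sums. A standard error is the difference over the root of its F statistic. Peaks against their gene, and genes against their contig, were tested with diffSpliceDGE. DESeq2 1.42.0 and limma 3.58.1 (loess) served in alternatives, and tables were made in Python 3.11.15 with pandas 2.3.3. The procedure was also run on simulated counts, which had the same relative spread for all peaks and neither an outlying library nor a trend with level. That run therefore cannot decide how far the calls depend on such features. The replicates come from 1 batch of cysts, and p-values measure the spread between these libraries. The 4 genes and the lists were chosen with earlier results of these data known. Values are given for each called peak, each peak over a TSS and the 3 strongest peaks of each gene. Peaks at 48056 bp (evm.TU.ctg15.54), -121952 bp and -10538 bp (evm.TU.ctg777.6) fall outside this rule and were chosen after their values were seen. The same holds for the Frizzled-10 peaks at -69463 bp, -8073 bp and 25658 bp.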

Additional observations from a re-analysis of the deposited data

How the results depend on the processing

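Of the 26 called peaks of the 4 genes, 7 kept their call in all 14 alternative fits. With library totals behind RPM, the median over all peaks moved by 0.16, and 21190 peaks were higher and 11934 lower (64.0% higher among called peaks, against 48.8%), of which 30 and 2 were peaks of the 4 genes. When 1 library was left out, the higher peaks of the 4 genes ranged from 16 to 30 and the lower from 2 to 4, against 11373 to 19301 higher and 9561 to 17601 lower over all peaks. The lowest count of lower peaks came without ArR_5h replicate 1. With loess offsets and without ArD_0h replicate 1, 10 peaks of the 4 genes were higher, and the peak of evm.TU.ctg15.54 at -43815 bp turned from 0.35 to -0.10. The cause was not tested.

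Without 1 library, the gene sum of evm.TU.ctg777.6 ranged from 0.41 to 0.71 and lost its call without ArR_5h replicate 1 (0.58, adjusted p = 0.0516). Promoter sums without 1 library ranged from 0.46 to 0.84 at evm.TU.ctg17.30, 0.69 to 1.20 at evm.TU.ctg15.54, 0.09 to 0.36 at evm.TU.ctg777.6 and 0.60 to 0.77 at Frizzled-10. The promoter of evm.TU.ctg17.30 passed the test without ArD_0h replicate 1 (0.46, adjusted p = 0.0126) and with loess offsets as well (0.44, adjusted p = 0.0132). That of evm.TU.ctg15.54 lost its call with DESeq2 size factors (0.89, adjusted p = 0.057) and at 1000 bp (0.77, adjusted p = 0.116), and that of Frizzled-10 at 1000 bp (0.55, adjusted p = 0.0653). Without 1 library, 0 to 7 peaks lay above their gene as a whole and 9 to 18 below it. Same-numbered replicates did not deviate together (correlations -0.21, 0.00 and -0.15). With 3 libraries in each group, this cannot decide whether libraries of the same number were handled together. With the replicate number as a block, 16550 peaks were higher and 15268 lower, 24 and 3 of them at the 4 genes, and the promoter sums of evm.TU.ctg15.54 (0.96, adjusted p = 0.0611) and Frizzled-10 (0.72, adjusted p = 0.118) lost their calls. For the 32 peaks that were called, lay over a TSS or were among the 3 strongest of their gene, 399 values matched the main result. These include values of peaks that were not called and stayed so. A call was lost in 41 values and gained in 7. In 1 value, that of evm.TU.ctg15.54 at -43815 bp, the sign reversed while the peak stayed not called.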

Other observations

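For each gene, the gene of similar level whose summed log2 CPM followed it most closely over the 6 libraries was evm.TU.ctg137.22 for evm.TU.ctg17.30 (Pearson r = 0.9998), evm.TU.ctg69.5 for evm.TU.ctg15.54 (0.9995), evm.TU.ctg435.3 for evm.TU.ctg777.6 (0.9993) and evm.TU.ctg366.31 for Frizzled-10 (0.9992). None of these lies on the contig of its partner. The 6 libraries form 2 groups and share depth and scaling, and 26.3% to 32.7% of the genes of similar level had an r above 0.9, so these values describe likeness only.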
